A study of Neurospora crassa with 14 samples.

Results

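Transcript levels in the mould Neurospora crassa were compared, by sequencing of messenger RNA, between strains deleted for rlp1 (NCU09007) and strains deleted for sds3 (NCU01599). These 2 groups hold 4 of the 14 samples of the series, 2 strains in each group. The 4 were chosen by the genotype in the sample labels. Wild type, also 2 strains, was the common reference: each deletion had been compared with it, and the change in the rlp1 deletion minus the change in the sds3 deletion was taken gene by gene, so that the wild type level cancels. No allele other than the named deletion is given for these strains, and wild type, rlp1 deletion and sds3 deletion were all grown without added compound, as 5 ml shaken cultures for 16 h at 32 °C in sucrose minimal medium. Further strains deleted for rlp2 (NCU02898) or eaf-3 (NCU06788), 2 each, are used below for levels only. The tables joined on 9477 genes, of which 8866 were tested.

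Rpd3 is a histone deacetylase, an enzyme that removes acetyl groups from histone tails, and in budding yeast it works in a large complex (RPD3L), of which Sds3 is a subunit, and in a small one (RPD3S), of which Eaf3 is a subunit. Deacetylation by such complexes is known mainly as a step in gene repression, although yeast genes that need the large complex for full expression are also known. The design of the series treats rlp1, rlp2, sds3 and eaf-3 as genes of these complexes in Neurospora, and the title of the series links RPD3L to the silencing of facultative heterochromatin, chromatin that is silenced by histone methylation and can be reactivated. Setting one deletion against the other shows where the loss of either gene leaves a different transcript level.

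Only the authors' results per gene were at hand, with no value for any single library, so the depth of the libraries and the spread between strains of a group could not be seen. Every sample is a whole culture, in which fewer cells of a type and less RNA per cell cannot be told apart. A difference is given on the log2 scale as rlp1 deletion minus sds3 deletion, followed by its standard error, and is positive where the transcript was higher in the rlp1 deletion. A gene was called where a two-sided Wald test, adjusted by Benjamini-Hochberg over the 8866 genes, gave an adjusted p under 0.05. The errors of both changes were added as if independent, which counts the shared wild type in each and so gives fewer calls. Counts with a share of the wild type error taken out are given beside them and are called shared-control counts. The level of a gene in a group is implied by the deposited average and fold changes, in normalized expression that is not divided by gene length. It is compared only within a gene or, as a sum in which the most abundant genes weigh most, within the same list.

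The deleted genes were examined first. The transcript of NCU09007 had an implied level of 72.6 in the rlp1 deletion, 165 in the sds3 deletion and 148 in wild type. Its difference was -1.18 ± 0.46, with an adjusted p of 0.0735 in the Wald test and of 0.00229 with the shared control. The transcript of NCU01599 had an implied level of 476 in the sds3 deletion, 680 in the rlp1 deletion and 807 in wild type, and its difference was 0.52 ± 0.27, with adjusted p-values of 0.234 and 0.0316 in the same order. Each deleted gene thus had its lower level in the group labelled with its deletion, but a transcript was still recorded in both, and neither difference passed the first test. Against wild type the authors' deposited changes were -1.03 for NCU09007 in the rlp1 deletion (FDR 0.0111) and -0.76 for NCU01599 in the sds3 deletion (FDR 0.00059). NCU09007 was also low in the eaf-3 deletion, at 87.8, so its level alone does not mark the rlp1 deletion. By contrast NCU06788 was at 0.19 in the eaf-3 deletion against 94.6 in wild type. The genes of both other deletions did not pass the first test either, with a difference of 0.87 ± 0.41 for NCU02898 (adjusted p = 0.16, and 0.0127 with the shared control) and of 0.83 ± 0.46 for NCU06788 (adjusted p = 0.265, and 0.0449 with the shared control). NCU05173, whose promoter drives a reporter in other strains of the series, was at 137 in the rlp1 deletion, 115 in the sds3 deletion and 1.86 in wild type, and its difference was 0.24 ± 1.23 (adjusted p = 0.939). The second such gene, NCU07152, was at 3.33 and 0.58, with a difference of 2.52 ± 2.80 (adjusted p = 0.664).

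Between the 2 deletions 957 genes were called. Of the genes tested, 466 (5.26%) were higher and 491 (5.54%) were lower in the rlp1 deletion, and the shared-control counts were 1229 (13.9%) and 1225 (13.8%). The counts of list members given below are to be read beside these shares. The median difference over all genes tested was 0.03, and 761 of the called genes differed by at least 1 on the log2 scale. In the authors' deposited table for the rlp1 deletion 14.6% of the genes with an FDR rose against wild type and 8.61% fell, and in that for the sds3 deletion 19.0% rose and 15.7% fell, at an FDR under 0.05. Of the 466 higher genes, 335 fell in the authors' deposited table for the sds3 deletion and 137 rose in that for the rlp1 deletion. Of the 491 lower genes, 362 rose in the authors' deposited table for the sds3 deletion and 135 fell in that for the rlp1 deletion. A gene could be in both of these counts, and for 68 genes both tables held a call and the calls were opposite. Of the 2217 genes with the lowest average, whose median standard error was 1.09, 1.94% were higher and 1.17% lower. Of the next 2216, with a median error of 0.42, 8.26% were higher and 8.08% lower, and of the 2217 with the highest average, with a median error of 0.33, 4.38% and 4.42%.

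**Figure D1:**
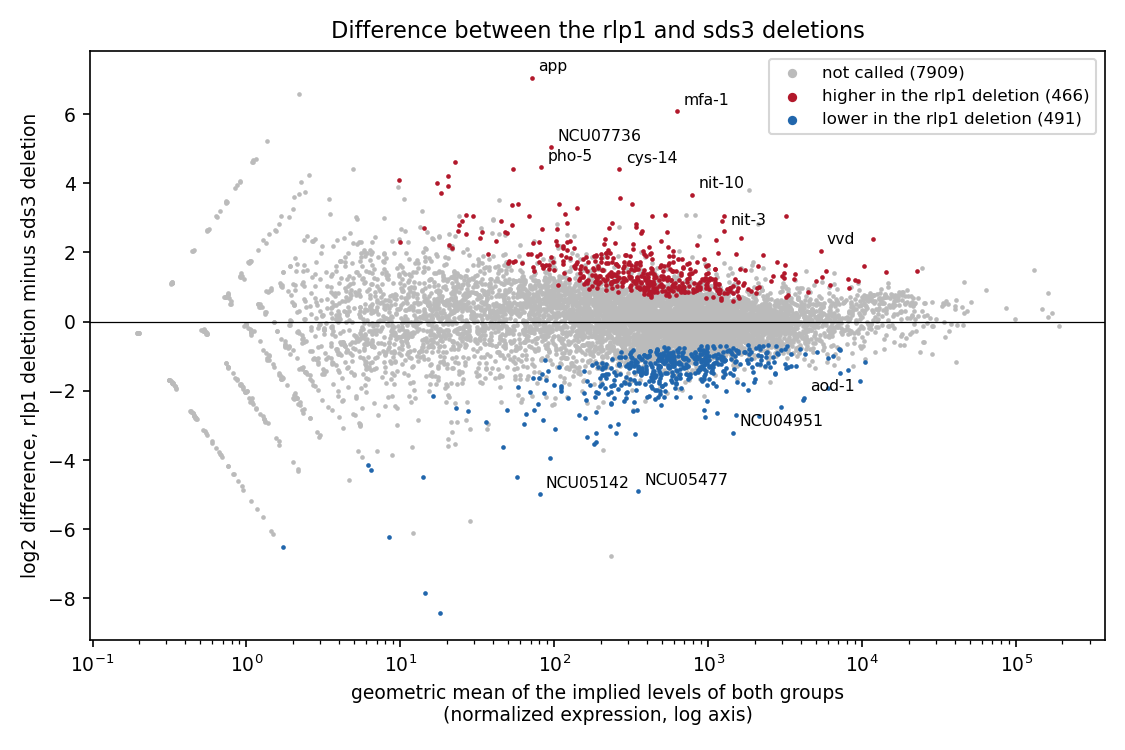
Difference between the deletions (log2, rlp1 deletion minus sds3 deletion) of the 8866 genes tested, against the geometric mean of the implied levels in both groups (normalized expression, log axis). Each point is a gene, 466 called genes are red and 491 are blue, and the largest called differences among genes of moderate level include app at 7.06 and NCU05142 at -4.98.

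Genes for the uptake and assimilation of nitrogen, sulfur and phosphorus stood among the largest positive differences. Neurospora prefers ammonium and glutamine as nitrogen sources, turns on nitrate assimilation when these run short, and makes high-affinity sulfate and phosphate permeases when sulfate or phosphate is scarce. Of all genes tested 5.26% were higher and 5.54% lower (13.9% and 13.8% with the shared control). Of 12 nitrogen genes 4 (33.3%) were higher in the rlp1 deletion and 0 lower (shared-control counts 6 and 0), with a list median of 0.44. Of 12 sulfur genes 2 (16.7%) were higher and 0 lower (4 and 0), with a median of 0.12. Of 7 phosphorus genes 2 (28.6%) were higher and 0 lower (2 and 0), with a median of 0.24. The calls therefore lay on single genes, chiefly transporters and enzymes, rather than on whole lists.

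The nitrate transporter gene nit-10 had an implied level of 2811 in the rlp1 deletion and 220.4 in the sds3 deletion, with 1172 in wild type between them. Its difference was 3.67 ± 0.56 (adjusted p = 2.76e-08), or 12.8-fold. Nitrate reductase, nit-3, was at 3144 in the rlp1 deletion, 509 in the sds3 deletion and 1385 in wild type, a difference of 2.63 ± 0.39 (adjusted p = 1.06e-08). For both genes the authors' deposited tables held opposite changes against wild type, of 1.26 and -2.41 for nit-10 and of 1.18 and -1.44 for nit-3, the rlp1 deletion first. Nitrite reductase, nit-6, which takes the next step, differed by 1.60 ± 0.56 (adjusted p = 0.0417). Glutamine synthetase, gln-1, differed by 1.46 ± 0.39 (adjusted p = 0.0048), and here wild type, at 14661, was above both deletions, at 9667 and 3513. The global activator nit-2, at 0.49 ± 0.24, was not called (adjusted p = 0.193) but was called higher with the shared control (adjusted p = 0.0195). Other regulators were called by neither count, with differences of -0.12 ± 0.40 for nit-4, the nitrate-specific activator, and 0.16 ± 0.30 for nmr, which restrains nit-2.

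The sulfate permease gene cys-14 was at 1224 in the rlp1 deletion and 57.4 in the sds3 deletion. Its levels in wild type (968), the rlp2 deletion (1136) and the eaf-3 deletion (1284) were all of the size seen in the rlp1 deletion. The difference of cys-14 was 4.41 ± 0.68 (adjusted p = 3.91e-08), or 21.3-fold. The sulfur regulator cys-3, which activates cys-14, was at 2737 and 1535, a difference of 0.83 ± 0.27 (adjusted p = 0.0283), and was below the wild type level of 4235 in both. The genes scon-2 (0.09 ± 0.30) and scon-3 (0.04 ± 0.24), whose products restrain cys-3, were not called.

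Both called phosphorus genes encode high-affinity phosphate permeases, and they departed from wild type in different deletions. For pho-5 the rlp1 deletion was far above wild type, at 389 against 24.8, with 17.5 in the sds3 deletion and 273 in the eaf-3 deletion, a difference of 4.48 ± 0.76 (adjusted p = 8.18e-07). For pho-4 the sds3 deletion was the low group, at 20.2 against 119 in the rlp1 deletion and 99.7 in wild type, a difference of 2.56 ± 0.67 (adjusted p = 0.00405). The phosphate regulator nuc-1 was not called, at -0.20 ± 0.33, nor was the phosphatase gene pho-3, at 0.84 ± 0.62.

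**Figure D2:**
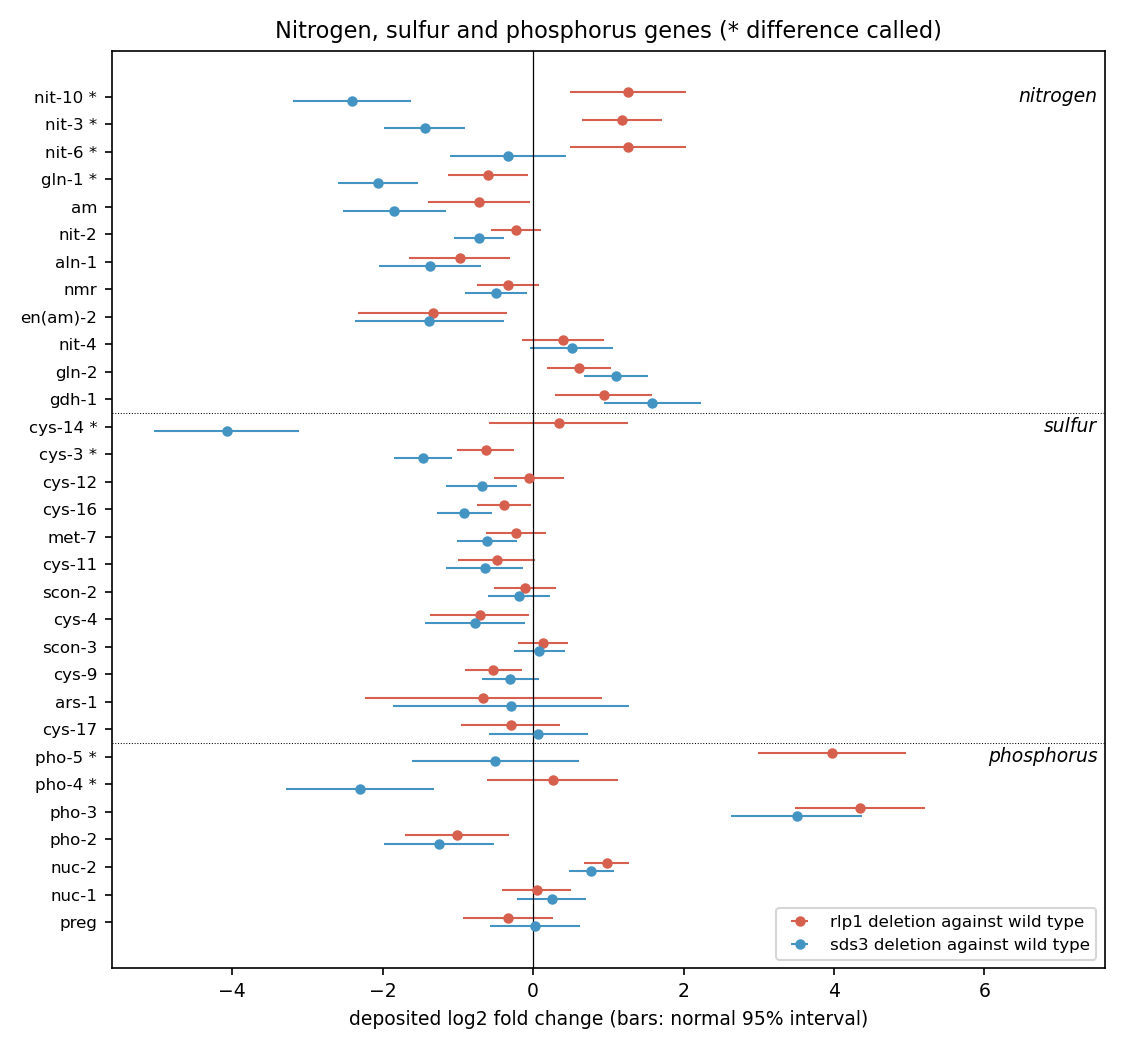
Deposited log2 fold changes against wild type in the rlp1 deletion (red) and the sds3 deletion (blue) of the nitrogen, sulfur and phosphorus genes tested, 1 gene a row, with normal 95% intervals from the errors implied by the deposited p-values. Intervals lie on opposite sides of 0 for nit-10 and nit-3, while for cys-14 the sds3 deletion lies far below 0 and for pho-5 the rlp1 deletion lies far above it.

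Some genes for the breakdown of polysaccharides were higher in the rlp1 deletion. Glycoside hydrolases cut the links between sugars, in plant cell walls outside the fungus or in its own wall and glycoproteins. Of 84 listed, 81 were tested, 7 were higher in the rlp1 deletion and 0 were lower (shared-control counts 20 and 1), and the median was 0.46 against 0.03 for all genes. The 8.64% called higher lie near the 5.26% of all genes. The best supported was gh16-1, at 4418 in the rlp1 deletion, 1160 in the sds3 deletion and 7854 in wild type, a difference of 1.93 ± 0.33 (adjusted p = 1.28e-06). The gene gh3-5 differed by 1.51 ± 0.31 (adjusted p = 0.000127) and gh47-3 by 1.33 ± 0.42 (adjusted p = 0.0203). In gh2-1, which differed by 2.31 ± 0.63 (adjusted p = 0.00642), the rlp1 deletion was the high group, at 176 against 35.6 in the sds3 deletion and 24.2 in wild type. Among 9 regulators and transporters of carbon use 0 were called in either direction (shared-control counts 4 and 0), and their median was 0.80. Of these, xlr-1, the activator of xylan degradation, differed by 1.43 ± 0.70, and clr-1, an activator of cellulose degradation, by 0.80 ± 0.33, both of which the shared-control count calls higher. The quinate cluster, which allows growth on quinic acid, had 7 genes, of which 0 were called (shared-control counts 0 higher and 2 lower). The 7 values were all negative, from -1.79 to -0.55, with errors from 0.32 to 1.05.

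Of 20 light and carotenoid genes 3 were higher in the rlp1 deletion (15%, beside 5.26% of all genes) and 0 lower (shared-control counts 4 and 0), with a median of 0.44. The blue-light photoreceptor gene vvd, which dampens the light response, was at 10963 in the rlp1 deletion, 2639 in the sds3 deletion and 233 in wild type. The difference of vvd was 2.05 ± 0.57 (adjusted p = 0.00726), and both deletions were above wild type. The gene cao-1, of the carotenoid oxygenase family, differed by 1.88 ± 0.50 (adjusted p = 0.00534) and cut-1 by 1.28 ± 0.35 (adjusted p = 0.00589). The gene cao-2, of the same family as cao-1, was not called, at 0.20 ± 0.27. The light response regulator genes wc-1 (0.02 ± 0.25) and wc-2 (-0.32 ± 0.36) and the carotenoid synthesis gene al-1 (0.53 ± 0.59) were not called. Of 11 clock genes, vvd was higher and prd-4, a checkpoint kinase, was lower, at -0.71 ± 0.25 (adjusted p = 0.0413). These are 9.09% in each direction, beside 5.26% higher and 5.54% lower of all genes. The clock gene frq was not called, at 0.99 ± 0.59.

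Of 23 genes of conidiation, the making of asexual spores, 1 was higher and 0 were lower (shared-control counts 3 and 1), with a median of -0.04. The 1 call is 4.35% of the list, beside 5.26% of all genes. The called gene was ccg-9, trehalose synthase, at 3654 in the rlp1 deletion, 440 in the sds3 deletion and 358 in wild type, a difference of 3.05 ± 0.60 (adjusted p = 4.03e-05). Other spore markers were not called, among them fl, the main regulator, at -0.16 ± 0.53, con-6 at -0.89 ± 0.92 and the hydrophobin gene eas at 1.50 ± 1.28. The summed level of the conidiation list was 561471 in the rlp1 deletion and 417369 in the sds3 deletion. Such a sum is weighted to the most abundant genes, and 11 of the 23 members had a positive difference. The part of the difference between the sums in the other results was not tested. The gene ccg-9 was also the 1 called of 6 storage carbohydrate genes (16.7%, beside 5.26% of all genes higher). In that list the trehalase gene tre-1 differed by 1.58 ± 0.79 and was called with the shared control only.

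The largest positive difference among genes with an adjusted p belonged to app, which is named for an abundant protein of the perithecium, the fruiting body of the sexual cycle. Its level was 831 in the rlp1 deletion and 6.24 in the sds3 deletion, with 117 in wild type, 1413 in the rlp2 deletion and 90.0 in the eaf-3 deletion. The difference was 7.06 ± 0.79 (adjusted p = 5.71e-16), and the authors' deposited tables held changes of 2.83 and -4.23 against wild type, the rlp1 deletion first. The gene poi-2, expressed in perithecia, was at 22.2 and 4.50 and differed by 2.30 ± 0.81 (adjusted p = 0.0445). Its level in the eaf-3 deletion was 649. The pheromone precursor gene mfa-1 was at 5205 and 76.4, a difference of 6.09 ± 2.17 (adjusted p = 0.0473). Neither gene passed the authors' deposited FDR of 0.05 against wild type in either deletion. Those FDRs were 0.186 and 0.0712 for poi-2 and 0.106 and 0.144 for mfa-1, the rlp1 deletion first. Of the 26 listed mating and sexual stage genes 25 were tested, with 3 higher, 1 lower (shared-control counts 7 and 2) and a median of -0.02. These are 12% higher and 4% lower, beside 5.26% and 5.54% of all genes. The summed level of the list, weighted to its most abundant genes, was 24455 in the rlp1 deletion and 17161 in the sds3 deletion. Of the 25 members tested 12 had a positive difference.

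Mating-type genes, which decide whether a strain mates as mat A or mat a, varied between the groups, and the sources used here do not give the mating type of the strains. These genes are named because of their levels. The mat A regulator gene matA-1 was at 0.18 in the rlp1 deletion and 0.19 in the eaf-3 deletion, against 12.4 in the sds3 deletion, 9.50 in the rlp2 deletion and 6.41 in wild type. The mat A pheromone gene ccg-4 was at 3.38 in the rlp1 deletion and 42.0 in the sds3 deletion, with 152 in wild type. It was at 276 in the rlp2 deletion and at 54.5 in the eaf-3 deletion, so it did not follow matA-1 in the eaf-3 deletion. The mat a pheromone gene mfa-1 was at 6355 in the eaf-3 deletion and 5205 in the rlp1 deletion. It was at 1566 in the rlp2 deletion, 547 in wild type and 76.4 in the sds3 deletion. The authors' deposited FDRs against wild type in the rlp1 and eaf-3 deletions were 0.461 and 0.443 for matA-1. For mfa-1 they were 0.106 and 0.0619, so none passed 0.05. The differences of matA-1 (-6.13 ± 6.64, adjusted p = 0.652) and ccg-4 (-3.63 ± 3.05, adjusted p = 0.523) were not called, and matA-3 was under 1 in all 5 groups. The receptor gene pre-1 was not called, at -0.02 ± 0.61, nor was pre-2, at 1.33 ± 1.22. In the groups with the lowest matA-1, app was at 831 (rlp1 deletion) and 90.0 (eaf-3 deletion). It was at 6.24 in the sds3 deletion, 1413 in the rlp2 deletion and 117 in wild type. The part of mating type in the values of mfa-1, poi-2 and app was not tested.

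**Figure D3:**
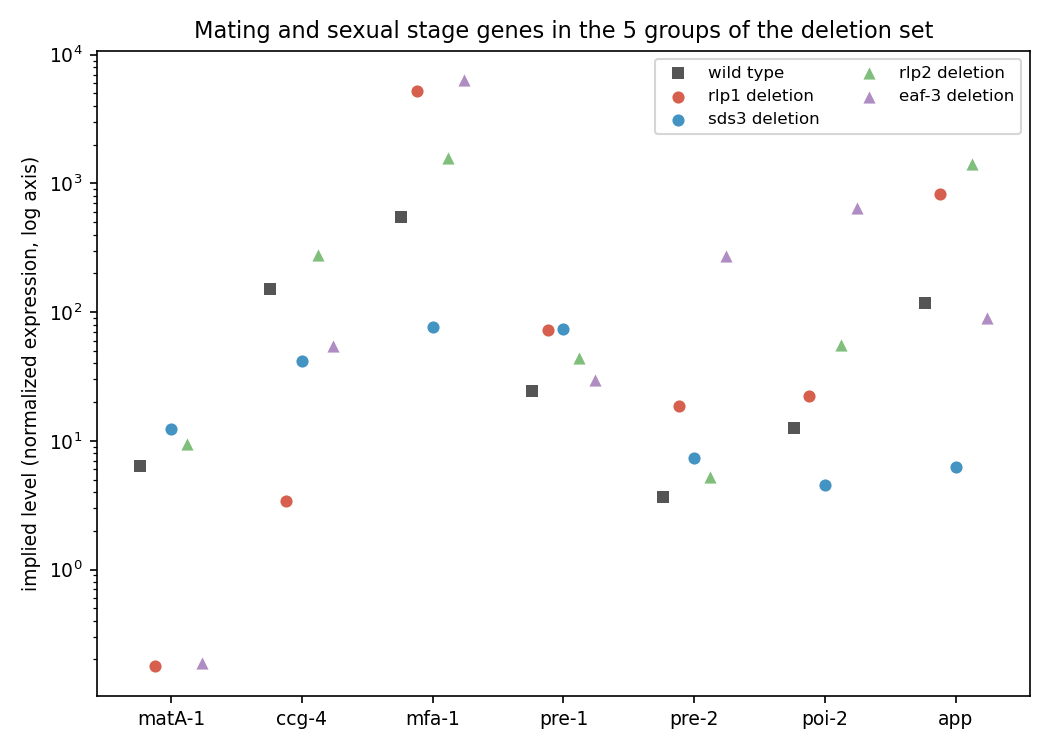
Implied levels (normalized expression, log axis) of 7 mating and sexual stage genes in the 5 groups of the deletion set, 1 symbol for each group with no spread, since no values per library were at hand. The rlp1 and eaf-3 deletions lie lowest for matA-1, and the sds3 deletion lies lowest for mfa-1, poi-2 and app.

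A gene of alternative respiration was among those lower in the rlp1 deletion. In Neurospora the alternative oxidase passes electrons from ubiquinone to oxygen past the cytochrome chain and is known to be induced when that chain is impaired. Its gene aod-1 was at 1947 in the rlp1 deletion and 8926 in the sds3 deletion, with 1459 in wild type, 1535 in the rlp2 deletion and 2025 in the eaf-3 deletion. The difference of aod-1 was -2.20 ± 0.48 (adjusted p = 0.000325), and aod-2, a transcription factor gene needed for the induction of aod-1, differed by -1.35 ± 0.36 (adjusted p = 0.00521). The second oxidase gene, aod-3, which is not in the list, was not called, at 0.13 ± 0.57. Of 54 genes of respiration, mitochondrial cyt genes included, 7 were lower and 0 higher (shared-control counts 12 and 0), while the list median was -0.03. The 7 lower genes are 12.963% of the list, beside 5.54% of all genes. Among the 7 were nde-1, an alternative NADH dehydrogenase, at -1.30 ± 0.40, cyt-18, the mitochondrial tyrosyl-tRNA synthetase that also aids intron splicing, at -1.60 ± 0.51, and cyt-2, the cytochrome c heme lyase, at -1.44 ± 0.47. The other alternative NADH dehydrogenase genes were not called, at 0.12 ± 0.46 for nde-2, 0.45 ± 0.31 for nde-3 and -0.80 ± 0.45 for ndi-1, the last of which is lower by the shared-control count. Most of the list consisted of subunits of complex I, none of which was called by the first test. The subunit gene nuo21.3c, at -0.94 ± 0.50, is lower by the shared-control count. Of the other subunit genes, nuo78 was at -0.55 ± 0.40 and nuo51 at 0.29 ± 0.57. The genes atp-1 (0.47 ± 0.38) and atp-2 (0.52 ± 0.38) of the ATP synthase were not called either.

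Carbon metabolism around acetate differed in both directions. Malate synthase of the glyoxylate cycle, acu-9, was at 1892 in the rlp1 deletion and 9077 in the sds3 deletion, with 1866 in wild type, a difference of -2.26 ± 0.40 (adjusted p = 3.68e-06). The acetyl-CoA hydrolase gene acu-8 was lower, by -1.17 ± 0.36, and the acetyl-CoA synthetase gene acu-5 was higher, by 1.25 ± 0.35. Of the 8 acetate and glyoxylate genes 1 was higher and 2 were lower (shared-control counts 1 and 3), with a median of -0.49. These are 12.5% and 25% of a short list, beside 5.26% and 5.54% of all genes. Isocitrate lyase, acu-3, the partner enzyme of malate synthase, was not called, at 0.42 ± 0.45.

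Among 56 genes of amino acid synthesis 4 were higher and 1 was lower (shared-control counts 13 and 4), with a median of 0.03. These are 7.14% and 1.79%, beside 5.26% and 5.54% of all genes. The mitochondrial ornithine carrier gene arg-13 was at 1025 in the rlp1 deletion, 370 in the sds3 deletion and 1188 in wild type, a difference of 1.47 ± 0.27 (adjusted p = 9.54e-06). The other higher genes were gln-1, his-7 at 1.02 ± 0.29 and met-6 at 0.94 ± 0.28, and ilv-5 was lower, at -1.20 ± 0.39. Of 9 purine and pyrimidine genes 2 (22.2%) were higher and 1 (11.1%) was lower (5 and 1), with a median of 0.73. All 3 called genes act in purine synthesis: ad-4, adenylosuccinate lyase, at 1.25 ± 0.44, ad-9 at 0.92 ± 0.29, and ad-7, the first enzyme of the pathway, at -1.37 ± 0.38. The 11 ribosomal protein genes all had positive differences, from 0.21 to 0.84, with a median of 0.67, but their errors lay between 0.41 and 0.62 and 0 were called by either count.

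Of 10 antioxidant genes 3 were higher (30%, beside 5.26% of all genes) and 0 lower (shared-control counts 5 and 1), with a median of 0.80. The called genes were glutathione transferases, led by gst-1 at 1805 in the rlp1 deletion, 392 in the sds3 deletion and 1292 in wild type, a difference of 2.20 ± 0.43 (adjusted p = 3.21e-05). They were joined by gst-3 at 1.38 ± 0.42 and gst-2 at 0.98 ± 0.34. Catalase and superoxide dismutase genes were not called, among them cat-3 at 1.51 ± 0.65, which is higher by the shared-control count, and sod-1 at 0.11 ± 0.42. Of 11 heat shock genes 1 was lower (9.09%, beside 5.54% of all genes) and 0 higher (4 and 1), with a median of -0.31. The called gene was hsp90a, at -1.07 ± 0.37 (adjusted p = 0.0428).

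Few genes for chromatin proteins were called. Of 10 histone and heterochromatin protein genes the linker histone hH1 was higher, at 12461 in the rlp1 deletion, 5283 in the sds3 deletion and 10126 in wild type, 2.36-fold higher in the rlp1 than in the sds3 deletion (adjusted p = 0.00727). The other members were not called by the first test (shared-control counts 3 higher and 0 lower), and the list median was 0.51. The call on hH1 is 10% of the list, beside 5.26% of all genes higher. Histone hH3 differed by 0.52 ± 0.33 and the heterochromatin protein gene hpo by -0.20 ± 0.29. Of 25 chromatin modifiers 2 were lower (8%, beside 5.54% of all genes) and 0 higher, with a median of -0.30. By the shared-control count 7 were lower and 4 higher. The 2 called genes were crf10-1, at -1.09 ± 0.35 (adjusted p = 0.0243), and cac-2, a subunit of a chromatin assembly factor, at -0.81 ± 0.23 (adjusted p = 0.0115). The Polycomb methyltransferase gene set-7, at 0.35 ± 0.30, and the heterochromatin methyltransferase gene dim-5, at -0.83 ± 0.57, were not called.

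Single calls fell in the lists for the cell wall and for incompatibility. Of 28 cell wall genes acw-6, an anchored wall protein, was higher at 1.21 ± 0.38, and acw-2, of the same class, was lower at -1.40 ± 0.41 (shared-control counts 2 and 4, median 0.06). These are 3.57% in each direction, under the 5.26% higher and 5.54% lower of all genes. Of 6 incompatibility genes pin-c, a partner of het-c in the recognition of unlike strains, was lower at -1.89 ± 0.53 (adjusted p = 0.00837). This 1 call is 16.7% of a short list, beside 5.54% of all genes lower. The shared-control counts were 1 higher and 2 lower, the median was -0.52, and het-c itself was at 0.00 ± 0.31. No gene was called among 26 of signalling (shared-control counts 1 higher and 2 lower, median -0.09), 23 of the proteasome (1 and 0, median 0.10), 13 of the cytoskeleton (4 and 1, median 0.19) and 7 of secondary metabolism (2 and 0, median 0.57). The adenylate cyclase gene cr-1 at -0.33 ± 0.28 and actin, act, at 0.71 ± 0.40, the latter called with the shared control, are examples from these lists.

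**Figure D4:**
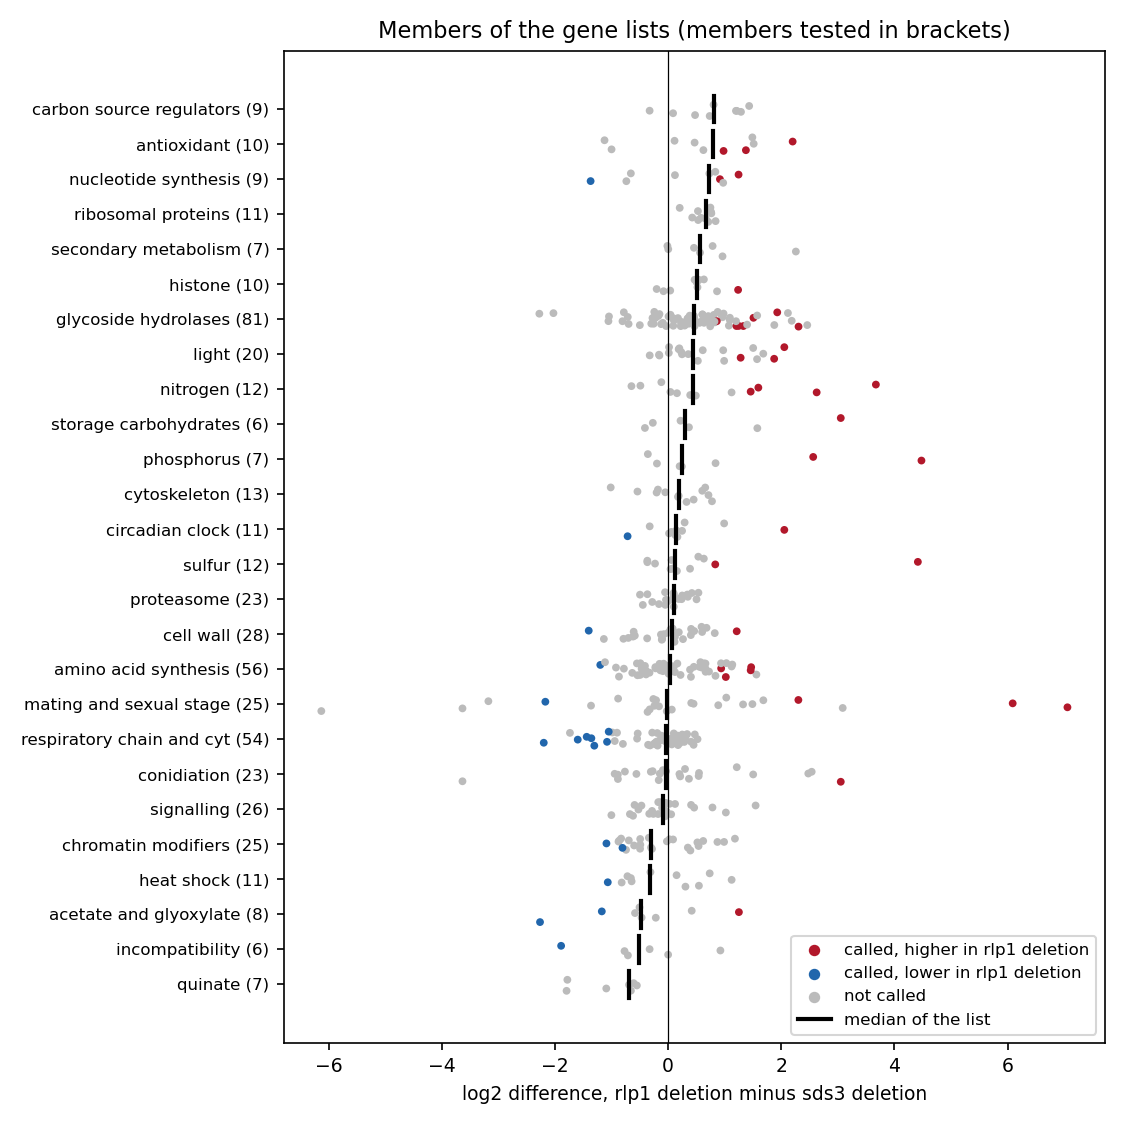
Differences (log2, rlp1 deletion minus sds3 deletion) of the tested members of each gene list, 1 point a gene, with called members in red (higher) or blue (lower) and the list median as a black bar. Red points lie far to the right in the nitrogen, phosphorus, sulfur and mating lists, whose medians stay between -0.02 and 0.44, and the blue points of the respiratory list lie left of a median of -0.03.

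Genes without a symbol in the reference table are described next, with col-22. NCU07736 had the smallest adjusted p of all, 7.47e-20, with 548 in the rlp1 deletion, 16.7 in the sds3 deletion and 623 in wild type, a difference of 5.04 ± 0.50. NCU07737, its neighbour on linkage group V, was at 1033 and 98.0, a difference of 3.40 ± 0.35 (adjusted p = 9.95e-19). The gene col-22 was at 924 in the rlp1 deletion, 77.5 in the sds3 deletion and 201 in wild type, and differed by 3.58 ± 0.37 (adjusted p = 1.99e-18). NCU05574 was at 249 and 11.7, a difference of 4.41 ± 0.68. Here NCU07736 was low in the sds3 deletion alone of the 5 groups, the other 4 lying between 548 and 2282, whereas NCU05574 was high in the rlp1 deletion, the other 4 lying between 11.7 and 54.1.

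Among the genes lower in the rlp1 deletion, NCU05142 was at 14.3 against 452 in the sds3 deletion and 12.2 in wild type, a difference of -4.98 ± 0.85 (adjusted p = 1.14e-06). In the eaf-3 deletion NCU05142 was at 250. NCU05477 was at 64.1 against 1906, with 84.5 in wild type, a difference of -4.89 ± 0.76, and its level in the eaf-3 deletion was 1907. NCU05005 was above the wild type level of 6.35 in both deletions, at 53.4 in the rlp1 deletion and 616 in the sds3 deletion, a difference of -3.53 ± 1.02. For NCU05863, which differed by -4.49 ± 1.31, the changes against wild type in the authors' deposited tables were 2.40 in the rlp1 deletion and 6.89 in the sds3 deletion. NCU02329 was at 615 in the sds3 deletion and 3467 in the eaf-3 deletion, and NCU04949 was at 515 and 655 in the same order. NCU02329 differed by -3.47 ± 0.81 and NCU04949 by -3.32 ± 0.51, with wild type close to the rlp1 deletion for both. By contrast rbg-40 was at 13.2 in the rlp1 deletion, 163 in the sds3 deletion and 112 in wild type, a difference of -3.62 ± 1.01, and NCU00264 was at 24.0, 370 and 106 in the same order, a difference of -3.95 ± 1.12. NCU04951 was at 477 in the rlp1 deletion, 4410 in the sds3 deletion and 6087 in wild type, a difference of -3.21 ± 0.44 (adjusted p = 2.17e-10). NCU05616 differed by as much, -3.21 ± 0.49, from 83.4 in the rlp1 deletion to 769 in the sds3 deletion.

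A level near 0 in the rlp1 deletion makes a fitted change no bound, so 3 called genes are given by their levels. NCU16482 was at 0.97 in the rlp1 deletion and 333 in the sds3 deletion, with 0.47 in wild type. NCU09854 was at 0.96 and 220, with 4.84 in wild type, and NCU07249 at 0.98 and 72.9, with 1.91 in wild type. In the eaf-3 deletion NCU16482 was at 20.7, NCU09854 at 23.5 and NCU07249 at 116. No called gene was under 1 in the sds3 deletion and at 20 or more in the rlp1 deletion.

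Facultative heterochromatin of Neurospora is known to lie largely near the chromosome ends, so the genes there were counted. Of the 50 outermost genes at each end of the linkage groups, by their order in the reference table (assembly NC12), 635 were tested in all. Of these 4.72% were higher and 6.14% lower in the rlp1 deletion, beside 5.26% and 5.54% of all genes, and their median was 0.05 (shared-control counts 79 and 92). These shares lay near those of all genes. Of the called genes 56 of the 466 higher ones and 94 of the 491 lower ones had an adjacent gene called the same way. With the shared control these were 377 of 1229 and 418 of 1225. These counts, and those of the stretches below, rise with the number of genes called even where calls are spread at random. The larger counts with the shared control therefore do not by themselves show that calls lie together. Whether neighbours were called together more often than calls spread at random was not tested. The longest stretch of neighbours by the first test held 4 genes lower in the rlp1 deletion, NCU09517, mus-41, NCU09514 and NCU09513, at places 10 to 13 from an end of linkage group III. A stretch of 3 higher genes on linkage group V held NCU07737, NCU07736 and NCU09823, and a stretch of 3 lower genes on linkage group IV held NCU04949, NCU04950 and NCU04951. With the shared control the longest stretches held 5 genes, those on linkage group V extended to NCU07738 and NCU09824 and those on linkage group III to NCU09518. Stretches of 3 or more then numbered 28 higher and 40 lower, against 2 and 5 by the first test.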

How the data were processed

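Messenger RNA libraries were made with a stranded kit, per the labels' protocols. The submitters' processing notes name DESeq2 1.24.0, RSEM 1.3.1 and STAR 2.7.3a. What each did, and which build, annotation and strand setting were used, is not given in the sources used here. The authors deposited 1 table for each deletion against wild type. Per the file headers, each gives a log2 fold change with its p-value and FDR, an average (a normalized expression signal), and a category score; the deposited average signal is the same in all 4 deletion tables. There were 0 columns of values per library, so depth and intervals that need it are unknown, and counts could not be tested. Genes that share reads with a near copy or an overlapping gene are uncertain.

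The tables for the rlp1 and sds3 deletions were joined by gene. The standard error of each deposited log2 fold change was its size over the normal quantile that its p-value implies. The difference was tested with a two-sided Wald test (normal), the squared errors summed, with Benjamini-Hochberg adjustment over 8866 genes. These are the genes with an FDR in both tables, 8925, less 59 with a change of exactly 0 in a table, which imply no error. The p-values rest on the spread between strains as the authors' model estimated it, and on 2 strains a group; whether strains were grown as separate experiments is not stated. The shared-control alternative assigns 0.5 of the smaller squared error to wild type and takes it out of both. An implied level assumes that the average covers 10 libraries of 5 groups with equal weight, which the files do not state. Other alternatives were a negative binomial variance, centring on the median, other thresholds and filters, and other widths of chromosome ends. The test was checked on simulated data.

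The comparison, the lists and the genes named were chosen with earlier results of these data known. After these values were seen, aod-2 was taken out of the conidiation list and a stem that caught pheromone receptors out of the proteasome list, and the lists for DNA repair and mitochondrial import were formed. Lists with under 5 tested members are not described. The 1 lower gene of the mating list is not reported here. Named are the deleted and reporter genes; the 8 largest called differences a direction with a level of at least 10 in both deletions; called genes under 1 in one deletion and at least 20 in the other, up to 4 a direction; up to 4 called members a list; the 4 smallest adjusted p-values a direction; uncalled members of well-known role; and the mating-type and pheromone genes, added for their levels. Other genes named, such as members of a stretch of neighbours, were chosen after their values were seen. Of the gene identifiers, 9476 of 9477 matched a locus tag of the NCBI RefSeq gene table (assembly NC12), used for symbols and gene order, and 1116 had a symbol. Python 3.11.15, numpy 2.4.6, scipy 1.17.1, pandas 2.3.3 and matplotlib 3.10.9 were used.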

Additional observations from a re-analysis of the deposited data

Results flagged for a closer look

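For 8 of the named genes the called difference came with opposite calls in the authors' deposited tables, the transcript being above wild type in one deletion and below it in the other. Higher in the rlp1 deletion were app (7.06), nit-10 (3.67), col-22 (3.58), NCU07737 (3.40) and nit-3 (2.63), and lower were NCU17240 (-2.09), NCU00931 (-1.99) and tim54 (-1.32), each value being the log2 difference. NCU17240 had implied levels of 234, 996 and 388 in the rlp1 deletion, the sds3 deletion and wild type, and its difference had a standard error of 0.32. NCU00931 was at 234, 928 and 546 in the same order, with a standard error of 0.27, and tim54, a subunit of a mitochondrial inner membrane translocase, at 453, 1133 and 793, with a standard error of 0.28. The mating type of the strains, which is not in the sources used here, was not tested for its part in app.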

How the results depend on the processing

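No paired analysis was possible because the tables hold no values per library and the labels give the deletion samples no replicate numbers; for the first reason leaving out single strains was not run either. With the shared control taken out, 2454 genes were called (1229 higher, 1225 lower), 139 list members and 171 genes at chromosome ends; with a negative binomial variance, 2562 (1299 and 1263), 143 and 184; at an adjusted p under 0.01, 409 (210 and 199), 24 and 31. The counts without these changes were 957 (466 and 491), 51 and 69. All 957 were among the genes called with either variance. With the 25 or the 100 outermost genes in place of 50, 37 and 135 genes at chromosome ends were called. Centring on the median gave 433 higher and 535 lower calls. Of 70 named called genes, 70 stayed called with either variance, with all genes tested and with a mean of at least 10, 68 when centred, 65 at a size of at least 1 and 45 at the stricter threshold. Among the 70 called and 10 uncalled genes followed, none changed sign under these alternatives; of the other genes in the text, het-c (0.00) and wc-1 (0.02) lie under the median of 0.03 and turn negative when centred. Depth is unknown, and errors implied by p-values are least exact for genes of low level.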

Other observations

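The genes called lower in the rlp1 deletion included 20 of 45 DNA repair genes and 10 of 26 genes of mitochondrial import and assembly. Both lists were formed by symbol after these values had been seen, so their counts describe the data and support nothing. In the DNA repair list 44.4% were lower, 0 were higher and 25 were not called. In this list 10 members had a positive difference, with shared-control counts of 27 and 0 and a median difference of -0.89, beside 5.54% lower and a median of 0.03 for all genes. The median change against wild type from the authors' deposited tables was 0.12 in the rlp1 deletion and 1.03 in the sds3 deletion. The mismatch repair gene pms-1 was at 189 in the rlp1 deletion, 853 in the sds3 deletion and 234 in wild type, a difference of -2.17 ± 0.64. The recombination gene mus-25, counterpart of yeast RAD54, was at 196, 864 and 191 in the same order, a difference of -2.14 ± 0.50 (adjusted p = 0.000931). For both genes the level in the rlp1 deletion lay close to wild type and the sds3 deletion was the high group. Members that were not called included mlh-1 at 0.59 ± 0.38 and the photolyase gene phr at 0.36 ± 0.62.

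In the mitochondrial list 38.5% were lower, beside 5.54% of all genes, 0 were higher and 16 were not called. There 3 members had a positive difference, with shared-control counts of 18 and 1 and a median of -0.76. The outer membrane translocase gene tom5 was at 534 in the rlp1 deletion, 1670 in the sds3 deletion and 670 in wild type, a difference of -1.64 ± 0.27 (adjusted p = 5.92e-07). The inner membrane translocase gene tim22 differed by -1.50 ± 0.34 (adjusted p = 0.000552) and mmm-1, which shapes and tethers mitochondria, by -1.28 ± 0.33 (adjusted p = 0.00314). The import pore gene tom40, at -0.47 ± 0.22, was called with the shared control only.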
